A study of Mus musculus with 4 samples.

Results

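The small leucine-rich proteoglycans are a family of secreted matrix proteins. They were followed here through 10 mouse genes: Dcn (decorin), Bgn (biglycan), Aspn (asporin), Ecm2 (extracellular matrix protein 2), Lum (lumican), Fmod (fibromodulin), Prelp (prolargin), Omd (osteomodulin), Ogn (osteoglycin) and Podn (podocan). The members were the gene probes that carry 1 of these names in the array design. This gave 11 probes for the 10 genes, 2 for Prelp and 1 for each other gene, of 40628 gene probes on each array for 29353 named genes and transcripts. RNA came from C3H10T1/2 cells, a mouse embryo fibroblast line, which had been transformed chemically. All cells, controls included, had received 3-methylcholanthrene, a polycyclic hydrocarbon carcinogen, at 2.5 µg/ml for 2 days. After a gap of 4 days came the phorbol ester tumour promoter TPA at 100 ng/ml for 2 weeks, then 4 weeks in normal medium. The labels of the control group (n = 2 arrays) name no phorone. The phorone group (n = 2 arrays) was exposed to 2 mM phorone, an unsaturated ketone that depletes glutathione. The length of that exposure and its vehicle are not stated in the labels. The labels do not say whether foci were picked or whole flasks were harvested. Nor is it stated whether both samples of each group were grown in separate cultures. The p-values therefore rest on the variation between the 2 samples of a group, moderated towards that of all tested probes. That variation may be technical.

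Proteins of this family have a curved core of leucine-rich repeats that binds the surface of collagen fibrils and regulates how thick and how evenly spaced the fibrils become. Many members also carry sulphated sugar chains, chondroitin or dermatan sulphate on decorin and biglycan and keratan sulphate on lumican, fibromodulin and osteomodulin. Free or matrix-bound, several of them bind growth factors of the TGF-beta family and cell surface receptors, decorin most often cited for binding the EGF receptor and biglycan for Toll-like receptors. Fibroblasts are a main source of decorin, lumican and biglycan in connective tissue.

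Levels are log2 signals relative to the 75th percentile of the same array, so a value of 0 is the signal of that percentile. A probe's level depends on its own sequence, so levels are compared between arrays and never between probes. Between 51.1% and 52.7% of the spots of an array were well above background by the scanner software, and no spot was saturated. Over 24207 gene probes the correlation was 0.987 within the control group, 0.995 within the phorone group and 0.936 to 0.951 between arrays of different groups. These correlations are across probes, which are not independent replicates. All 4 arrays were on 1 slide, scanned on 1 day, and the slide's rows each held arrays of a single group, so row and treatment cannot be told apart.

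The comparison asked how the exposed transformed cells differed from the unexposed ones in the expression of this family. Of the 10 genes, 8 were measurable in at least the control group. The 6 measured in both groups fell with phorone, and Ecm2 and Lum were not well above background there. Their log2 fold changes (phorone minus control) on the brightest probe of each gene ran from -5.72 for Prelp to -1.60 for Bgn, with a median of -3.69. With Ecm2 and Lum set to the smallest change their signals allow, the median was -3.23. Over all 17033 genes measured the median was 0.08, and 21.0% were called lower and 23.8% higher by limma at a Benjamini-Hochberg adjusted p under 0.05 (3581 and 4061 genes). Scaled to spike-in probes, 1197 genes were lower and 2822 higher with a median of 0.52, and the 8 members were still lower, with a median of -3.26. By probe, 9 of the 9 member probes that passed the filter were lower, where 20.3% of all 24207 probes were lower and 25.5% higher. On each of the 9 probes both phorone arrays lay below both control arrays. A probe passed the filter if its signal was well above background throughout at least 1 group, which Fmod and Podn were not. Ecm2, Lum and the dimmer Prelp probe passed through the control group alone, which fixed their direction. Of the 6 members well above background in both groups, 6 were lower. In RNA from bulk cultures, fewer cells of a type and less RNA per cell cannot be told apart.

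**Figure D1:**
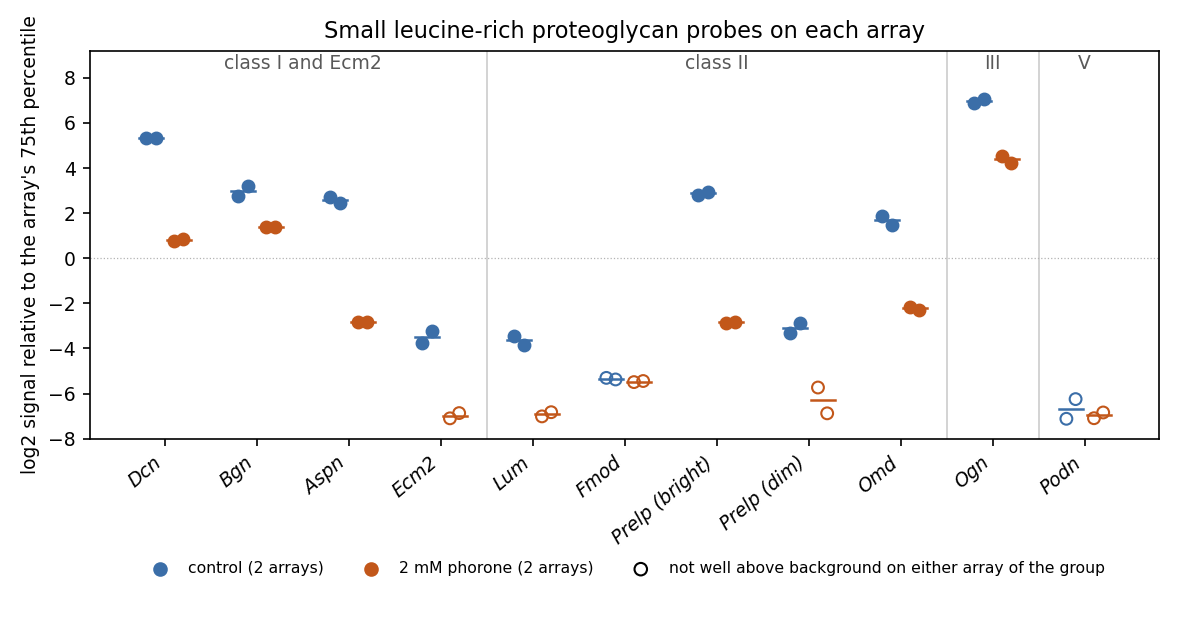
Log2 signal relative to the array's 75th percentile (vertical axis) for each of the 11 probes of the family, with 1 point per array, control in blue and 2 mM phorone in orange; short lines are group means and open points mark a group in which neither array was well above background. On each of the 9 probes that passed the filter both orange points lie below both blue points, with the widest gap on the bright probe of Prelp, while Fmod and Podn are open in both groups.

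Decorin, biglycan and asporin form the first class of the family, defined by the cysteine spacing near the amino terminus. Dcn, which wraps collagen I fibrils and carries a single dermatan or chondroitin sulphate chain, read 5.33 and 5.32 without phorone and 0.77 and 0.84 with it. The groups lay far apart and both pairs of arrays agreed closely. The difference was -4.52 (SE 0.12, limma adjusted p = 0.000227), a level 23.0-fold lower in the phorone group (95% interval of the log2 fold change -4.84 to -4.21). Aspn, which differs from decorin in carrying a run of aspartates and no sugar chain, read 2.70 and 2.43 in the control group and -2.83 and -2.84 in the phorone group. This was a change of -5.40 (SE 0.15, limma adjusted p = 0.000227), or 42.3-fold lower. Bgn, the closest relative of decorin, with up to a pair of sugar chains and a known role as a danger signal, read 2.75 and 3.20 in the control group and 1.38 on both phorone arrays. Here the groups stood closer together than on any other member measured in both groups, with a difference of -1.60 on the log2 scale (SE 0.18, limma adjusted p = 0.00308) and a level 3.03-fold lower. The 2 control arrays differed more from each other on Bgn than on Dcn. Scaled to the 7 spike-in probes in place of the 75th percentile, Bgn stood at -1.16 (limma adjusted p = 0.0434).

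Ecm2, a larger glycoprotein that shares the leucine-rich repeats and sits beside Aspn on the chromosome, read -3.76 and -3.21 in the control group. Both phorone arrays, at -7.10 and -6.87, were not well above background. The probe for Ecm2 is shown because its bases 35 to 52, in capitals, would spell the core of a leucine-rich repeat (leucine, any, leucine, any, any, asparagine) in the 1 frame of the probe without a stop. The place of the probe in its transcript was not read here.
Ecm2 probe: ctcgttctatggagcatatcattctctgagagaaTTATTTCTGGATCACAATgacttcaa
The fitted log2 fold change of Ecm2 was -3.50 (SE 0.22, limma adjusted p = 0.000726). Set against the lowest signal that is well above background on the phorone arrays, Ecm2 was at least 2.27-fold lower. Such a bound compares the mean of the control arrays with, on each phorone array, the higher of the probe's own signal and that lowest signal. With normexp background correction, which lifts dim signals, the change of Ecm2 was -0.70 and still called.

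The second class carries keratan sulphate or stretches of sulphated tyrosine. Prelp, a heparin-binding member thought to anchor basement membranes to the matrix beneath, had 2 probes. The brighter read 2.80 and 2.94 in the control group and -2.85 on both phorone arrays. Its background-subtracted signals before scaling were 4900.62 and 5720.53 against 77.98 and 79.52. Neither pair of arrays varied by more than a small part of the difference. The log2 fold change was -5.72 (SE 0.13, limma adjusted p = 0.000227; 95% interval -6.05 to -5.39), or 52.7-fold, and ranked 27th from the lowest of the 24207 probes. The dimmer probe read -3.30 and -2.86 against -5.73 and -6.88, with both phorone arrays not well above background. Its fitted change was -3.22 (SE 0.40, limma adjusted p = 0.00385), a level at least 3.01-fold lower, and -0.87 with normexp background correction. The dim probe passed the filter through the control group alone, so it is no second reading of the direction. The dim probe is the other of the 11 in which an open frame, here 1 of 2, would spell the repeat core, in capitals at its bases 5 to 22.
Prelp dim probe: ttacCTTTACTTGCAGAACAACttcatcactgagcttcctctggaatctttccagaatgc
No other probe on the array shared 20 or more bases in a row with a probe of the family.

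Omd, a keratan sulphate proteoglycan of bone that binds hydroxyapatite, read 1.87 and 1.48 in the control group and -2.15 and -2.27 in the phorone group. The change was -3.89 (SE 0.18, limma adjusted p = 0.000370), or 14.8-fold, and lay between -4.08 and -3.32 under the 16 alternatives of processing. Lum, which spaces collagen fibrils in the cornea and the dermis, was dim even without phorone, at -3.43 and -3.86. It was not well above background on the phorone arrays, at -7.01 and -6.83. Its fitted change was -3.28 (SE 0.19, limma adjusted p = 0.000611), at least 2.04-fold lower, and -0.77 with normexp background correction. Fmod, which competes with lumican for the same site on collagen, read -5.31 and -5.38 in the control group and -5.49 and -5.45 in the phorone group. None of these 4 signals was well above background, so Fmod was not tested and has no fold change. Of the class, Prelp and Omd were therefore measured in both groups, Lum in the control group, and Fmod in neither.

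Ogn, also called mimecan, is the third-class member and carries keratan sulphate in the cornea. It read 6.87 and 7.04 without phorone and 4.53 and 4.24 with it. Its background-subtracted signals before scaling were 82223.6 and 98440 against 13022.8 and 10845.4. The phorone signal of Ogn was still well above background and far above the 75th percentile of those arrays. The log2 fold change was -2.57 (SE 0.16, limma adjusted p = 0.000695; 95% interval -2.98 to -2.16), a level 5.94-fold lower. Podn, a fifth-class member that restrains smooth muscle growth, read -7.12 and -6.25 against -7.10 and -6.84. Podn was not well above background on any of the 4 arrays, and the groups overlapped, so it gives no fold change.

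Among the 6 members measured in both groups, the differences themselves spread over more than their errors. The 95% interval of Prelp (-6.05 to -5.39) overlapped that of Aspn (-5.78 to -5.02). The interval of Dcn (-4.84 to -4.21) lay above both and overlapped that of Omd (-4.34 to -3.43). Those of Ogn (-2.98 to -2.16) and Bgn (-2.07 to -1.13) overlapped with no other member's. These are intervals of single probes, and no test between members was run. By class no order appeared: Aspn and Bgn of the first class stood near opposite ends, and the single third-class member lay between them. The 3 dim probes, those of Ecm2 and Lum and the second of Prelp, enter no such ranking, because in the phorone group they have only a bound.

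Of 8 further genes of the family, 7 were on the array by name and 6 passed the filter. Beside 21.0% lower and 23.8% higher among all genes, 3 of the 6 were lower, 1 higher and 2 not called (median -0.18, or -0.04 with dim genes at their bound). This median was 0.25 under spike-in scaling. Optc (opticin), a third-class member of the vitreous, went from a mean of -2.75 in the control group to -6.27, not well above background, and was at least 3.79-fold lower (fitted -3.52, SE 0.40, limma adjusted p = 0.00299). Optc passed the filter through the control group alone, which fixed its direction, and its fitted change lay between -4.09 and -0.96 under the alternatives. Of its 4 other probes, 3 passed the filter, and they too were at the background with phorone, so they add no separate direction. Epyc (epiphycan), a third-class member of growth cartilage, went from -4.32 to -6.97, also dim with phorone, which fixed its direction. It was at least 1.28-fold lower (fitted -2.66, SE 0.19, limma adjusted p = 0.000956), but not called with normexp background correction (-0.27). Podnl1, the close relative of podocan, was lower by a small margin (-0.76, SE 0.21, limma adjusted p = 0.0350). That call of Podnl1 was lost without control replicate 2 (-0.50, limma adjusted p = 0.0653), without phorone replicate 1 (-0.83, 0.0528), without phorone replicate 2 (-0.68, 0.105), with no filter on dim probes (0.102) and under spike-in scaling (-0.32, 0.607). Nyx (nyctalopin), a retinal member anchored in the membrane, moved the other way, from a mean of -4.12 to -0.70 (3.43, SE 0.16, limma adjusted p = 0.000412). Tsku (tsukushi), a secreted inhibitor of BMP signals, stood at 0.53 (limma adjusted p = 0.0634) and Chad (chondroadherin) at a fitted 0.39 (limma adjusted p = 0.0741). Chad was not well above background on either control array and passed the filter through the phorone group alone, which fixed its direction. Its fitted change was 0.50 without control replicate 1. Kera did not pass the filter and Chadl was not found by name.

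Most of these genes lie in 3 clusters, which the gene order of the GRCm38.p6 assembly shows: Optc, Prelp and Fmod on chromosome 1, Dcn, Lum, Kera and Epyc on chromosome 10, and Ecm2, Aspn, Omd and Ogn on chromosome 13. On chromosome 13 all 4 genes lie within the span of Cenpp, which encodes a subunit of the centromere complex. Aspn, Omd and Ogn, the 3 measured in both groups, fell with log2 fold changes of -5.40, -3.89 and -2.57 in their order along the chromosome. Ecm2, at the head of the row, has a bound of at least 2.27-fold lower. Cenpp around them stood at 0.12 (SE 0.15, limma adjusted p = 0.515). On the far sides, Nol8, a nucleolar protein gene, was higher (1.76, SE 0.12, limma adjusted p = 0.000914), as was Ippk, an inositol phosphate kinase gene (0.86, SE 0.17, limma adjusted p = 0.0139). Bicd2 (-0.14) and Iars (0.15) were not called. The call of Ippk was lost without phorone replicate 2 (0.76, limma adjusted p = 0.0554).

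On chromosome 10, Dcn was lower and Lum and Epyc were dim with phorone. Of the neighbours, Eea1 (0.11), Btg1 (-0.04) and Poc1b (0.02) were not called on their brightest probe. Another probe of Eea1 was called higher (1.93, limma adjusted p = 0.00518). The remaining Eea1 probes that passed the filter were not called (-0.13 and -0.38). Atp2b1, a plasma membrane calcium pump, was higher by 0.60 (SE 0.18, limma adjusted p = 0.0433). That call was lost without control replicate 1 (0.70, limma adjusted p = 0.0629), control replicate 2 (0.50, 0.131) or phorone replicate 2 (0.42, 0.224). On chromosome 1, Btg2, a growth-restraining gene beside Fmod, was lower (-1.39, SE 0.17, limma adjusted p = 0.00384), and Chit1 (0.20) was not called. Over the 3 clusters, 11 neighbours were tested of 15 on the array. Of these 1 was lower, 3 were higher and 7 were not called, beside 21.0% lower and 23.8% higher among all genes. Their median was 0.12, near the 0.08 of all genes. Without phorone replicate 2, 1 neighbour was higher. Under spike-in scaling 0 were lower and 2 higher. No test compared the family with its neighbours.

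**Figure D2:**
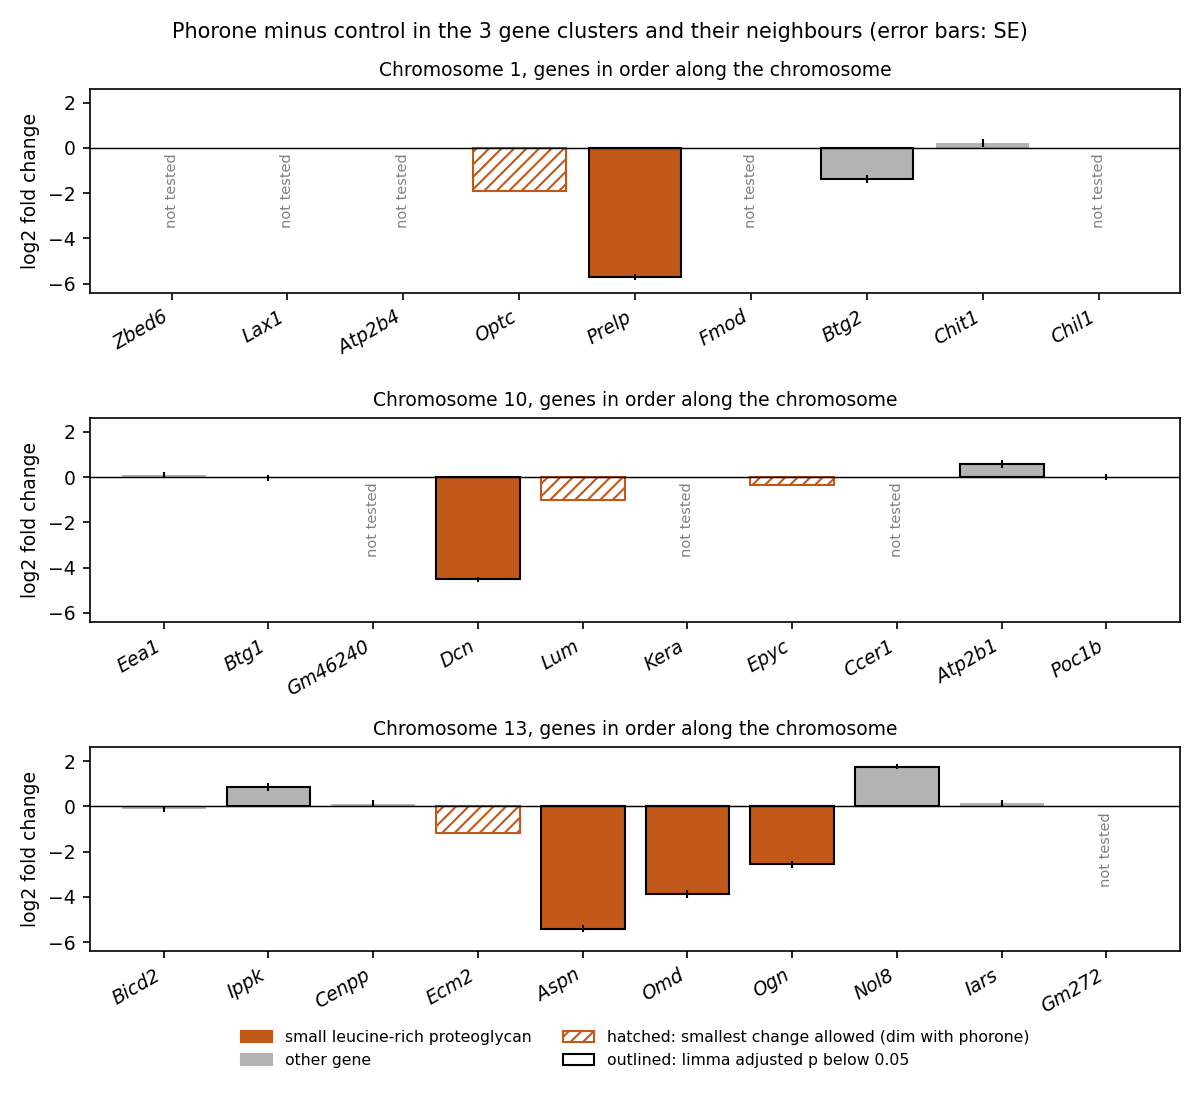
Log2 fold change, phorone minus control, with its standard error (vertical axis) for the genes of the 3 clusters in chromosome order, family genes in orange and neighbours in grey, outlined where limma's adjusted p was under 0.05; hatched bars show the smallest change allowed for genes that were dim with phorone. The filled orange bars of Prelp, Dcn, Aspn, Omd and Ogn run from -2.57 to -5.72. The hatched bars of Optc, Lum, Epyc and Ecm2 have a direction set by the filter. The neighbours, each on its brightest probe, lie between -1.39 and 1.76.

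The sequences upstream of the chromosome 13 genes are shown because 3 of these 4 adjacent genes, Aspn, Omd and Ogn, were measured in both groups and fell. That of Bgn, on chromosome X, is shown beside them as the member that fell least among those measured in both groups. Each run is the 250 bases before the annotated start, from RefSeq on GRCm38.p6, read on the plus strand, with TATAAA and CCAAT on either strand in capitals.
Ecm2, chr13:49504560-49504809: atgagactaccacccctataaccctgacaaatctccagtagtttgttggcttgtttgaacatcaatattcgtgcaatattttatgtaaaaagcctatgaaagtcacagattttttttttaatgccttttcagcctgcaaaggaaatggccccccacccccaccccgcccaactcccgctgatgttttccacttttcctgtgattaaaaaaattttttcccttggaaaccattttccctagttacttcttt
Aspn, chr13:49544193-49544442: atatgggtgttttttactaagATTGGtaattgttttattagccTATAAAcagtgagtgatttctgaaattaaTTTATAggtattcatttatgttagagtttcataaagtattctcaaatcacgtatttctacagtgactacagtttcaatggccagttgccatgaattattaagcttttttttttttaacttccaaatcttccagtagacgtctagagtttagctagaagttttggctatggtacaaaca
Omd, chr13:49582212-49582461: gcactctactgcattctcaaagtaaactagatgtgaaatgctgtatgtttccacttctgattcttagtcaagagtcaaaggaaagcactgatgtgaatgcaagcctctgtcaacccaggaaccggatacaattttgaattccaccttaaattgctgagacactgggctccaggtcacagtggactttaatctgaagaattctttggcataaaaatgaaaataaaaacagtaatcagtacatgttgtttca
Ogn, chr13:49607765-49608014: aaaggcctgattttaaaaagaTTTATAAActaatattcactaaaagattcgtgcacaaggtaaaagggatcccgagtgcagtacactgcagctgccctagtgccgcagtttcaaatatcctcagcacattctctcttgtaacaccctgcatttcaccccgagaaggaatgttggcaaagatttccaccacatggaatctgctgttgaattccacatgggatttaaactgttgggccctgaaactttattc
Bgn, chrX:73483351-73483600: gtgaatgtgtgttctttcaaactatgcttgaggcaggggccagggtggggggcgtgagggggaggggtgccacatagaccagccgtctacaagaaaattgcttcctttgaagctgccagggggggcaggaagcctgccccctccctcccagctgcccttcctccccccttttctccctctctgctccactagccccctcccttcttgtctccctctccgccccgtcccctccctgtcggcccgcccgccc
The runs of the chromosome 13 genes were poor in G and C, at 40%, 30%, 38.4% and 42%, with 3, 2, 1 and 4 CpG pairs. That of Bgn had 64.4% and 7 CpG pairs, against medians of 52.4% and 6 over all 32851 promoters of the table. TATAAA was found in Aspn and Ogn, 2 of the 9 runs that the table holds for 8 members (Podn has 2), and in 12.4% of all promoters. The matches of Aspn start 207 and 178 bases before the annotated start, and the overlapping matches of Ogn lie 229 to 222 bases before it. CCAAT was found in Aspn and Prelp and in 33.8% of all promoters. TGANTCA, the letters bound by AP-1, was in 0 of the 9 runs and 6.75% of all promoters. TGACNNNGC, the core of the antioxidant response element, was in 0 of the 9 and 10.2% of all. These counts describe letters in a short window. Dcn and Lum have no entry in the table.

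The sugar chains of the family are built by a common set of enzymes. Of 27 genes for the linkage region and for chondroitin and dermatan sulphate, 24 were tested. Of these 8 were lower, 2 higher and 14 not called, beside the 21.0% lower and 23.8% higher among all genes, with a median of -0.23, or 0.21 under spike-in scaling, where 2 were lower and 1 higher. Csgalnact1, which adds the first sugar of a chondroitin chain, fell by 2.48 (SE 0.15, limma adjusted p = 0.000623). Chst15, a sulphotransferase that makes chondroitin sulphate E, fell by 2.38 (SE 0.12, limma adjusted p = 0.000483). Chpf2, a chondroitin polymerising factor, was higher (1.55, SE 0.13, limma adjusted p = 0.00147), as was B4galt7, which adds the first galactose of the linkage region (0.67, SE 0.13, limma adjusted p = 0.0120). B4galt7 was not called without phorone replicate 2 (0.61, limma adjusted p = 0.0840) or under spike-in scaling (1.10, 0.0571). Xylt2, which starts the chain on the core protein, stood at -0.16 and Dse, the epimerase that turns chondroitin into dermatan sulphate, at -0.29, neither called. With no filter on dim probes 5 genes of this list were lower. Without phorone replicate 2, 1 gene was higher.

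Of 12 genes for keratan sulphate, 10 were tested, 5 were lower and 0 higher, and 5 were not called, beside 21.0% lower and 23.8% higher among all genes. The median of the list was -0.61. Under spike-in scaling 1 was lower, with a median of -0.18. Chst1, the keratan sulphate galactose sulphotransferase, fell by 1.87 (SE 0.19, limma adjusted p = 0.00235). St3gal1, a sialyltransferase, fell by 0.93 (SE 0.14, limma adjusted p = 0.00587), though not called under spike-in scaling (-0.49, 0.419).

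The collagens that the family binds were lower in nearly every case. Of 13 chains 12 were tested and 11 were lower, 0 higher and 1 not called, beside 21.0% lower and 23.8% higher among all genes. The chains had a median of -2.71 and a range of -5.11 to -0.30. Under spike-in scaling 7 were lower, with a median of -2.27. Col6a3, a chain of the collagen VI microfibrils that bind decorin and biglycan, went from a mean of 1.29 to -3.83 (-5.11, SE 0.12, limma adjusted p = 0.000227). Col11a1, a chain that nucleates fibrils, went from 2.53 to -2.14 (-4.67, SE 0.17, limma adjusted p = 0.000278). The chain not called was Col1a1, at -0.30 on its brightest probe (limma adjusted p = 0.101), while its 2 other probes were lower.

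Of the growth factors and cytokines that members bind, 8 of 11 were tested. Of these 5 were lower, 0 higher and 3 not called, beside 21.0% lower and 23.8% higher among all genes. The median of the list was -1.06. Under spike-in scaling 2 were lower, with a median of -0.62. Pdgfb, a growth factor for mesenchymal cells that decorin binds, fell by 2.91 (SE 0.13, limma adjusted p = 0.000361). Tgfb2, a ligand of the TGF-beta family, fell by 2.28 (SE 0.16, limma adjusted p = 0.000914). The other TGF-beta genes, Tgfb1 (-1.22) and Tgfb3 (-0.90), were lower too, though neither was called under spike-in scaling. Tgfb1 was also not called without control replicate 2 (-1.02, limma adjusted p = 0.0627).

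Of 17 receptors, 15 were tested, 7 were lower, 1 higher and 7 not called (median -0.44), beside 21.0% lower and 23.8% higher among all genes. The receptor counts turned on the scaling: with the spike-in probes 0 were lower and 0 higher, with a median of -0.01. Averaging the probes of each gene left 4 lower. Lrp1, an endocytic receptor that clears decorin, stood at -1.50 (SE 0.17, limma adjusted p = 0.00287), and -1.06 under spike-in scaling (0.0682). P2rx7, an ATP-gated channel that biglycan engages, stood at -1.44 (SE 0.19, limma adjusted p = 0.00470), but was not called under spike-in scaling (limma adjusted p = 0.0873), and a second probe of the gene was called higher (0.59). Met, the hepatocyte growth factor receptor that decorin binds, was higher by 0.40 on its brightest probe (SE 0.12, limma adjusted p = 0.0458). Its 2 other probes were not called (-0.19 and -0.21), and the mean of its probes stood at 0.003 (limma adjusted p = 0.988). Under median, quantile and spike-in scaling Met was not called (limma adjusted p = 0.0656, 0.0580 and 0.160). The call of Met was lost with each array left out in turn, control replicate 1 (limma adjusted p = 0.0859), control replicate 2 (0.0710), phorone replicate 1 (0.208) and phorone replicate 2 (0.230). The receptors of soluble biglycan, Tlr2 (0.11) and Tlr4 (0.24), were not called.

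Of 18 genes that process or degrade the family's proteins, 9 were tested. Of these 7 were lower, 1 higher and 1 not called, beside 21.0% lower and 23.8% higher among all genes. The median of the list was -2.02. Under spike-in scaling 6 were lower and 0 higher, with a median of -1.59. The aggrecanases Adamts1 and Adamts4, which cleave biglycan and other proteoglycans, fell by 2.29 each (SE 0.21 and 0.15, limma adjusted p = 0.00165 and 0.000719). Mmp3 (stromelysin), which cleaves decorin, was not well above background with phorone, which fixed its direction. It was at least 4.99-fold lower (fitted -4.34, SE 0.29, limma adjusted p = 0.000826), and its fitted change lay between -4.71 and -1.18 under the alternatives. Ctsl, a lysosomal cysteine protease, was higher (0.58, SE 0.13, limma adjusted p = 0.0204). That call of Ctsl was lost without control replicate 2 (0.50, limma adjusted p = 0.0536), phorone replicate 1 (0.61, 0.0798) or phorone replicate 2 (0.54, 0.121), and under spike-in scaling (1.01, 0.0841). Bmp1, the protease that trims the biglycan propeptide, stood at -0.49 and was not called (limma adjusted p = 0.0531). It was called lower with all 4 arrays required above background (limma adjusted p = 0.0369), under quantile normalisation (-0.52, 0.0440) and with normexp background correction (-0.49, 0.0179).

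**Figure D3:**
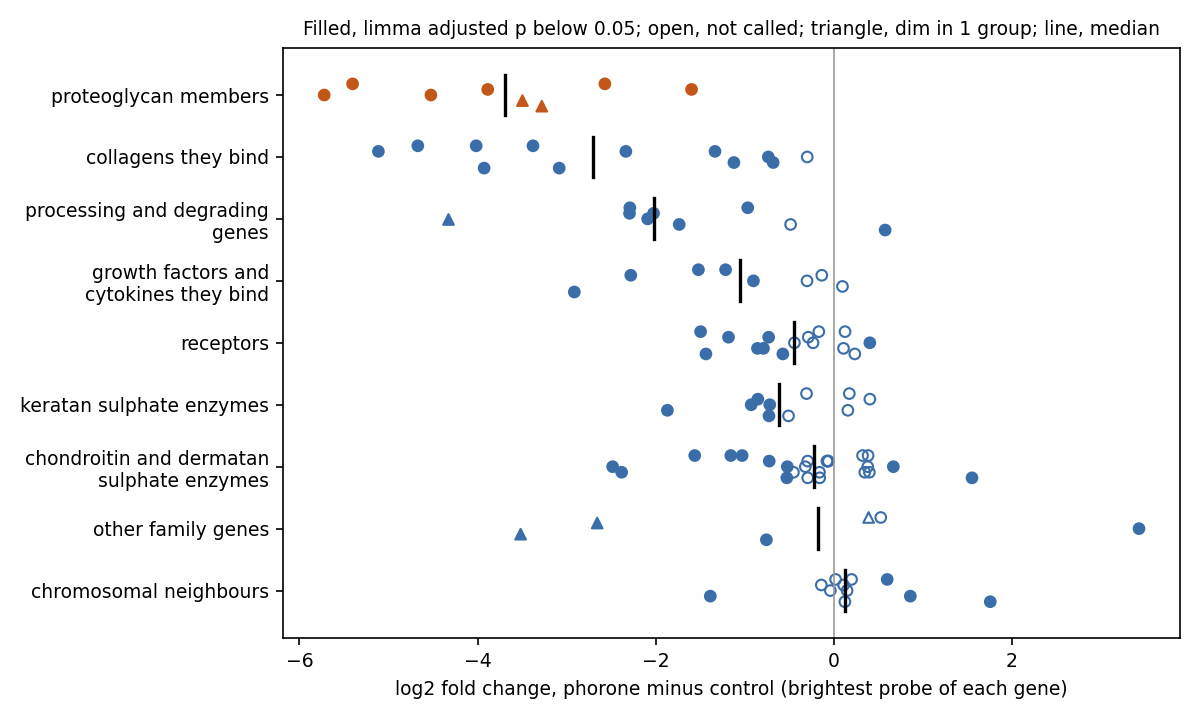
Log2 fold change, phorone minus control, of the brightest probe of each tested gene (horizontal axis), 1 row per gene list, with filled points for genes called by limma, open points for the others, triangles at the fitted value of genes that were dim in 1 group and so have only a bound, and a black line at each list's median. The family members lie between -5.72 and -1.60. Medians are -2.71 for the collagens, -2.02 for processing and degrading genes and -1.06 for growth factors and cytokines. Those of the sugar chain enzymes, receptors, other family genes and chromosomal neighbours lie between -0.61 and 0.12.

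Markers of the labelled cell type and of others were set beside these results. Of 11 fibroblast markers, 11 were well above background on both control arrays and 10 on both phorone arrays. Their summed signal, in units of each array's 75th percentile, was 1554 and 1611 in the control group and 695 and 731 in the phorone group. This list shares Col1a1, Col1a2 and Col3a1 with the collagens above. By gene, 7 fibroblast markers were lower, 0 higher and 4 not called, beside 21.0% lower and 23.8% higher among all genes. Pdgfra was lower at -2.98, and Vim (-0.36) and Fn1 (-0.08) were not called. Vim was called lower under quantile normalisation (-0.49, limma adjusted p = 0.0374) and with normexp background correction (-0.36, 0.0300). Some markers of the other lists were not well above background on any array. They included Ptprc and Adgre1 (macrophage), Pecam1 and Cdh5 (endothelium), Cdh1 and Krt18 (epithelium) and Hapln1 and Matn1 (cartilage). Sp7 and Ibsp (bone), Tnmd (tendon), Adipoq and Plin1 (fat) and Myod1 and Myog (muscle) were likewise dim. Other markers were well above background on all 4 arrays, among them Scx and Mkx (tendon), Pparg, Fabp4, Lpl and Cebpa (fat) and Runx2 (bone). Among cell types in which the family is abundant, the summed signal of 7 cartilage markers was 7.96 and 9.06 in the control group and 1.06 and 1.27 in the phorone group. That of 4 tendon markers was 18.4 and 21.2 against 10.5 and 9.15, and that of 7 bone markers was 2.80 and 2.19 against 1.43 and 1.57. That of 7 fat markers was 17.8 and 15.8 against 11.0 and 11.8, and that of 7 muscle markers was 6.23 and 7.63 against 1.42 and 1.94. On each array most of the sum came from a single gene for cartilage (Col2a1), tendon (Scx), bone (Runx2) and muscle (Acta1). Col2a1 is also among the collagens above. The sums of 8 macrophage, 7 endothelial and 8 epithelial markers lay between 0.0696 and 0.811 on every array. Among the other markers above background, Cd68 of macrophages was higher (1.26, limma adjusted p = 0.00936) and Lyz2 lower (-1.74, limma adjusted p = 0.00103). Tek of endothelium was at least 1.68-fold lower and Phex of bone at least 2.31-fold higher, each dim in 1 group, which fixed its direction. Fap of fibroblasts and Alpl and Bglap of bone were dim with phorone, which fixed theirs too. Of the bone markers called lower, Runx2 (-0.68) alone was measured in both groups. Acta1 (-2.07) and Des (-1.79) of muscle and Sox9 (-2.38) of cartilage were lower. By list, the tested markers lower, higher and not called were 3, 0 and 0 for cartilage and 3, 1 and 1 for bone. They were 2, 0 and 0 for tendon and for muscle, 2, 0 and 2 for fat, and 0, 0 and 3 for epithelium. They were 1, 1 and 1 for macrophages and 1, 0 and 0 for endothelium. The part of these shifts in the fall of the family was not tested.

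The genes outside the family whose 4 array values, centred on their own mean, came nearest to the mean profile of the 8 measured members were Rnase10, Depp1, Sulf2, Fgf18 and Aldh1a1. Their Euclidean distances were 0.0973, 0.119, 0.124, 0.176 and 0.185 on the log2 scale, over 4 arrays. The profile includes the phorone values of Ecm2 and Lum, which were not well above background, and Rnase10 was likewise dim on both phorone arrays (-1.98 with normexp background correction). The log2 fold changes of these 5 genes ran from -3.84 for Sulf2, an enzyme that removes sulphate from heparan sulphate, to -3.71 for Aldh1a1, a retinal dehydrogenase. With 4 arrays in 2 groups this measure is set mostly by the size of the difference between the groups.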

How the data were processed

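Labelled RNA was hybridised to 4 one-colour Agilent arrays of a custom mouse design. The intensity used is the processed signal that the authors deposited, made with Agilent Feature Extraction 10.7.3.1 per the file headers, background-subtracted and not scaled between arrays. A value table deposited by the authors gives log2 values for these probes, which differed from the log2 processed signal by a constant per array (SD at most 0.0195) and were used as an alternative. Its column medians ran from -4.39 to -4.30.

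The members and gene lists were chosen with earlier results of these data known. Log2 signals were centred on each array's 75th percentile over probes outside the controls, and spots of a probe averaged. Outlier spots were left out (111 probes). Probes well above background throughout at least 1 group entered a limma fit (limma 3.58.1, R 4.3.3; lmFit and eBayes, two-sided, 2 residual and 3.08 prior degrees of freedom), with Benjamini-Hochberg adjustment and calls under 0.05. The brightest kept probe stood for a gene in counts of genes. The number of arrays limits the precision. RefSeq accessions named 69.2% of gene probes and the design the others. The script was tested on simulated data.

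Named genes are all members with every probe; per list up to 2 called genes each way with the largest change among genes above background on all arrays, and up to 1 each way not above background in 1 group; the other family genes and the tested neighbours; and the 5 nearest profiles. Col1a1, Xylt2, Dse, Tgfb1, Tgfb3, Tlr2, Tlr4, Bmp1 and the markers singled out were named after their values were seen. Alternatives were other filters, scalings, background correction, probe rules, the authors' table, a replicate block and leaving out each array.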

Additional observations from a re-analysis of the deposited data

How the results depend on the processing

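The 8 measured members were lower in each of 16 alternatives, except that the 6 members left by the filter on all 4 arrays were all lower, and the 9 probes gave 6 to 9 lower. No member changed direction or lost its call. For Ecm2, Lum and the dim Prelp probe the filter had fixed the direction, so this rests on the 6 members measured in both groups. The limits lie in the dim probes and in the scaling. The ranges of Ecm2 (-3.77 to -0.70), Lum (-3.49 to -0.77) and the dim Prelp probe (-3.80 to -0.87) reach their small ends with normexp background correction. Spike-in scaling raised the median of all probes from 0.11 to 0.54 and lowered the share of all genes called lower from 21.0% to 7.03%. The counts of lower genes became 2 of 24 for the chondroitin and dermatan enzymes, 1 of 10 for keratan sulphate and 7 of 12 for collagens. They became 2 of 8 for growth factors, 0 of 15 for receptors and 0 of 11 for neighbours. The cause was not tested. Without a filter, where 9.10% of all genes were lower, 5 chondroitin and dermatan enzymes were lower. With all 4 arrays required above background, 3 other family genes were tested, of which 1 was lower and 2 were higher (median 0.53). Averaging each gene's probes left 4 receptors lower. The replicate numbers did not pair the arrays (correlation of same-numbered deviations -0.0408), and with a replicate block 8 members were lower (Bgn -1.60, limma adjusted p = 0.00335), with 3271 genes lower and 3412 higher in all. Of 40 called genes named outside the members, 13 lost their call in some alternative and 11 under spike-in scaling, and no called gene changed direction.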
